A study of Homo sapiens with 6 samples.

Results

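The regions described here are R-loop peaks with midpoints inside gene bodies, listed for untreated HEK293T cells with no counterpart in cells given N2-heptynyl-dG. They were chosen by position in the peak lists alone. A peak of the untreated list became a member when no treated peak on its strand shared 1 bp or more with it, and when its midpoint fell inside an annotated transcript but outside every promoter window (from 1000 bp before a start to 100 bp after it) and every terminal window (from 100 bp before a transcript end to 1000 bp after it). This left 803 members of the 10231 peaks in the untreated list, against 11085 peaks in the treated list. Of the members, 540 touched no such window at any base, and the others reached into one. Since the absence of a treated peak selected the members, that absence is a description and not a result.

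HEK293T is a human embryonic kidney cell line. The cells were wild type and were either left untreated or exposed to 10 μM N2-heptynyl-dG, a guanine nucleoside with an alkyl group on N2 that cells can build into their DNA, for 3 h. Both groups then received 5 mM N3-kethoxal for 10 min, which labels guanine in single-stranded DNA, so that these stretches could be enriched and sequenced by strand (spKAS-seq). The labels list 2 spKAS-seq samples of each condition and 2 inputs of untreated cells, and 1 peak list per condition was used here. A list gives chromosome, start, end and strand of each peak without a height, so the depth behind a peak is unknown, no value has a spread between replicates, and absence from a list does not show that the signal was gone. The intervals below are 95% intervals of a share or a median. They give counting error as if the peaks of a list were independent, and overlap between them is given as a description only. No test of a difference was made, because neighbouring peaks and peaks of the same library are not replicates.

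An R-loop forms when nascent RNA pairs with the template strand behind RNA polymerase and leaves the other DNA strand unpaired. R-loops are best known from promoters rich in CpG, where the RNA-like strand carries more G than C downstream of the start, and from the ends of genes. In the interior of genes they have been linked to pausing of the polymerase, to splicing and to collisions with replication forks.

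The members with the most uneven base composition show how varied these regions are, so stretches of 250 bases are given first. Each is the stretch of the peak with the largest excess of G over C, read on the strand of the peak in GRCh37, and capitals mark runs of 3 or more G. The peak in intron 2 of KDM4B, a histone H3 lysine demethylase gene, had the highest G-minus-C skew of all members (chr19:5019114-5019363, plus strand). The peaks in F11-AS1, an antisense RNA gene that lies within an unnamed protein-coding gene taken as the host (chr4:187354533-187354782, minus strand), and in intron 2 of TFDP1, which encodes the dimer partner of E2F factors (chr13:114243129-114243378, plus strand), came next.
KDM4B: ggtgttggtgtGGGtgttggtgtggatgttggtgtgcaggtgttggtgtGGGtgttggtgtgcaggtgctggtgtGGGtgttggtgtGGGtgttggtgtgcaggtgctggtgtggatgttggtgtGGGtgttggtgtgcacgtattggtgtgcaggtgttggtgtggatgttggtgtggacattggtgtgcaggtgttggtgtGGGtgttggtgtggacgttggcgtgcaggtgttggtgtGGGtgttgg
F11-AS1: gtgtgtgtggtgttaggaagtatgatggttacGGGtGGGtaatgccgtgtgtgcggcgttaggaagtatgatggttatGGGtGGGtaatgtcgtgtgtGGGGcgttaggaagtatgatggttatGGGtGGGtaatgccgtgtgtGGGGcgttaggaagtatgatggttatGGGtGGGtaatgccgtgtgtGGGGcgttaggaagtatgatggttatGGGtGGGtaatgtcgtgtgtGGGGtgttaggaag
TFDP1: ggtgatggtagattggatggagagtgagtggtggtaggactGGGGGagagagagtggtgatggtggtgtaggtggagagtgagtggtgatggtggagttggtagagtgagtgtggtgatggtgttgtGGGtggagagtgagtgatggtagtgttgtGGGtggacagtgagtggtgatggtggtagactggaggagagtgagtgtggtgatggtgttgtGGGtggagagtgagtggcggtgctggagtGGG
At the other extreme stood MPG, the glycosylase gene for alkylated purines (chr16:131769-132018, plus strand), with the lowest skew of all members.
MPG: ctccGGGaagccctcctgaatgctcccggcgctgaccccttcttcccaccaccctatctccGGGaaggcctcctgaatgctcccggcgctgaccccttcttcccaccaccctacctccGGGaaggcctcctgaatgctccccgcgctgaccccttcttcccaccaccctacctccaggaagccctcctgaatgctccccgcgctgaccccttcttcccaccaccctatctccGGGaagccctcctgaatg
Among the widest members was a peak in AGBL5, which encodes a carboxypeptidase acting on tubulin (chr2:27265417-27265666, plus strand). Over the whole peak its skew was -0.0239, within the quartiles of the members.
AGBL5: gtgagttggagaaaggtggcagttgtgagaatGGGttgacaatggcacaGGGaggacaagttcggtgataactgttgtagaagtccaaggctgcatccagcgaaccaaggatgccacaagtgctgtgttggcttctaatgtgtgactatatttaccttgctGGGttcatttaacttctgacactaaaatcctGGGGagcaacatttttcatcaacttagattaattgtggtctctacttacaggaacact
The stretches from KDM4B, F11-AS1, TFDP1 and MPG consist of short units in tandem. Shifted by 46 bases, the F11-AS1 stretch matched itself at 96.1% of positions, and the MPG stretch did so at 96.4% after a shift of 57 bases. The KDM4B stretch reached 84.4% at 38 bases and TFDP1 62.4% at 29 bases, whereas AGBL5 reached 33.9% at its best shift between 5 and 100 bases. Over whole peaks, 20 of 802 members (2.49%, 1.62 to 3.82) matched themselves at 60% of positions or more, a share similar to the 2.25% of matched and 2.49% of treated-only peaks. CLPTM1L, LRP8, USP25 and TERT were among their hosts, named after their values were seen. Reads from such repeats, and from the 61 members (7.61%) that had a near-identical copy elsewhere in the genome, may be hard to place. How reads mapped there was not examined.

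Of the 2405 untreated peaks in gene bodies, the 803 members made up 33.4% (31.5 to 35.3), while 25.4% of all untreated peaks and 22.9% of those outside gene bodies lacked a treated partner. The reverse held for 1007 of 2580 treated gene-body peaks, or 39.0%. The other 1602 untreated gene-body peaks are called matched below and the 1007 treated ones treated-only. Narrow peaks were unmatched more often than wide ones. Among 500-bp peaks 418 of 888 were members (47.1%, 43.8 to 50.4), against 60 of 605 (9.92%, 7.78 to 12.6) of those over 1000 bp. A wider peak has more bases with which to meet a partner, and width was thus part of what the rule acted on. Near a start the share was also lower, at 26.1% (23.4 to 28.9) within 1 kb, than at 1 to 5 kb (38.6%) or beyond 5 kb (37.9%).

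**Figure D1:**
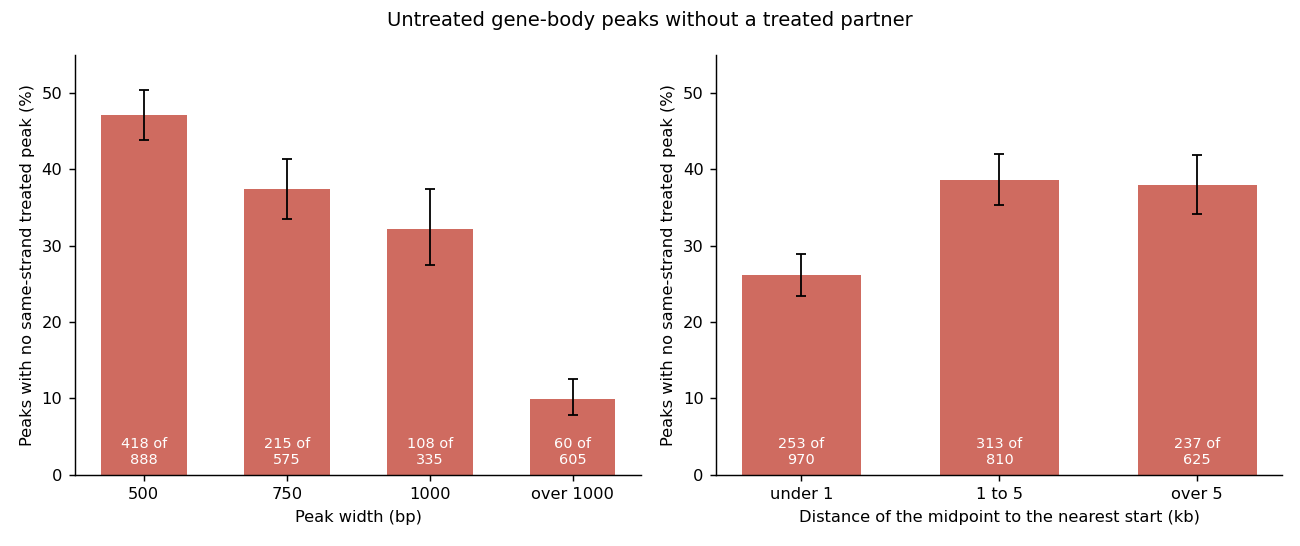
Share of untreated gene-body peaks with no same-strand treated peak (y axis, percent), by peak width in bp (left) and by distance of the midpoint to the nearest annotated start in kb (right). Bars are shares with 95% Wilson intervals and the counts are printed inside; the share falls from 47.1% at 500 bp to 9.92% above 1000 bp.

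Members were narrow. Their median width was 500 bp (quartiles 500 and 750, range 397 to 2000), and 52.1% were exactly 500 bp, whereas matched peaks had a median of 750 bp. The treated-only peaks, chosen by the mirror rule, also had a median of 500 bp. In sum the members covered 561708 bp, with 394 peaks on the plus and 409 on the minus strand. Among the widest, at 1750 bp each, were those in ANXA9 (an annexin; intron 12), AGBL5 (intron 1), an unnamed lncRNA on chromosome 9, TSPOAP1-AS1 (a lncRNA; intron 1), TRAPPC5 (a subunit of the TRAPP tethering complex; exon 2) and MARK4 (a kinase acting on microtubule-associated proteins; intron 1). TAS1R3, which encodes a subunit of the sweet and umami taste receptors, followed with 1500 bp in intron 5. Of these, the peaks in ANXA9, the lncRNA on chromosome 9, TSPOAP1-AS1 and TAS1R3 lay on the strand opposite to the gene. The introns given for AGBL5 and MARK4 are those of transcripts other than the Ensembl canonical one. The MARK4 midpoint was 71511 bp from the start of such a transcript and also lay within the gene NKPD1.

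The members fell in 775 host genes, and 750 of these held a lone member. For each peak the host was the protein-coding gene at the midpoint where there was one, then a lncRNA, then any other gene, the longest in case of a tie. Protein-coding genes hosted 656 members (81.7%, 78.9 to 84.2), lncRNAs 121 (15.1%), pseudogenes 23 and other genes 3. The matched peaks (79.7% protein-coding) and the treated-only peaks (84.4%) had similar hosts. Protein-coding genes hold 73.0% of the gene-body bases of the genome. The median reference transcript of the members was 45574 bp long (41475 to 49477), compared with 34026 bp for matched and 48534 bp for treated-only peaks. No length was computed for genes without a peak. The reference transcript is the Ensembl canonical one where it holds the midpoint, which was so for 697 members, and otherwise the longest that does.

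Several members in the same gene were rare. One unnamed protein-coding gene that overlaps NBPF10 on chromosome 1 held 4, all on its strand, and each of these had at least 1 near-identical copy elsewhere. DCUN1D5, a cofactor for attaching NEDD8 to cullins, held 3 on its strand, in intron 1, intron 4 and exon 8, at 2.73%, 41.6% and 96.8% of the transcript. No treated peak of either strand lay in DCUN1D5 or at its start. The nearest same-strand one to any of its members was 704500 bp away, but one on the other strand lay 18000 bp from the intron 1 member. Each of 23 genes held 2. In CDC73, which encodes parafibromin of the PAF1 transcription elongation complex, they sat in introns 1 and 15, 802 and 115302 bp from the start. XYLB (a xylulokinase) held one near its start at 1.80% and another near its end at 95.8%. CALD1, whose caldesmon binds actin and myosin, had its pair at 0.0979% and 83.6%. The axon guidance gene SLIT2 carried its members in introns 12 and 29, and the chromatin remodeller CHD9 in intron 17 and its last exon. The gene N4BP2L2 held its pair in introns on its own strand. In EIF2AK1, the heme-regulated kinase of the translation factor eIF2α, intron 14 held a member opposite to the gene and intron 2 one on its strand.

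By strand, 652 of 803 members lay on that of the host gene (81.2%, 78.3 to 83.7). This was above the 75.3% (73.1 to 77.3) of matched peaks, and the 77.4% (74.7 to 79.8) of treated-only peaks lay in between. With protein-coding hosts the share was 86.1% (83.3 to 88.6), against 79.5% and 79.8% for the other sets. With lncRNA hosts the direction turned, at 58.7% (49.8 to 67.1) of members, 61.1% of matched and 66.7% of treated-only peaks, with overlapping intervals. Of the 151 members opposite to their host, 28 lay in another annotated gene on their own strand. The contrast with the matched peaks stood away from starts. Within 1 kb of a start, 86.2% of members and 90.0% of matched peaks lay on the strand of the host. At 1 to 5 kb these shares were 78.0% (73.0 to 82.2) and 62.6% (58.2 to 66.7), and beyond 5 kb they were 80.2% (74.6 to 84.7) and 64.4% (59.5 to 69.0). Treated-only peaks reached 72.5% and 75.9% there, closer to the members than to the matched peaks.

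Most members sat in introns. In the reference transcript 337 midpoints were in intron 1 (42.0%, 38.6 to 45.4) and 321 in a later intron (40.0%, 36.6 to 43.4), 98 of all members being in the last intron. Exon 1 held 71 (8.84%) and later exons 74 (9.22%). By coding status 40 midpoints were in coding sequence, 25 in 5′ UTRs, 52 in 3′ UTRs and 28 in exons of noncoding transcripts. When exons of any transcript counted, 210 members had an exonic midpoint (26.2%, 23.2 to 29.3). That was below the 36.3% (34.0 to 38.7) of matched peaks and close to the 27.4% (24.7 to 30.2) of treated-only peaks, and above the 5.49% of gene-body bases that are exonic. The share rested on the windows: it was 15.6% when any overlap with a window removed a peak, 12.2% with windows of 1000 bp on either side of starts and ends, and 4.98% with 2000 bp, settings for which the exonic share of bases was not computed. The direction of the difference from the matched peaks was the same at each distance from a start: 40.3% of members and 47.1% of matched peaks were exonic within 1 kb, 21.7% and 29.2% at 1 to 5 kb, and 16.9% and 25.5% beyond 5 kb, although the intervals of members and matched peaks overlapped in each of these bins. An exon was touched by 44.2% of members and by 64.6% of matched peaks, which are wider, whereas 14.3% of members lay in exons over their whole length, against 11.1% of matched and 12.2% of treated-only peaks.

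**Figure D2:**
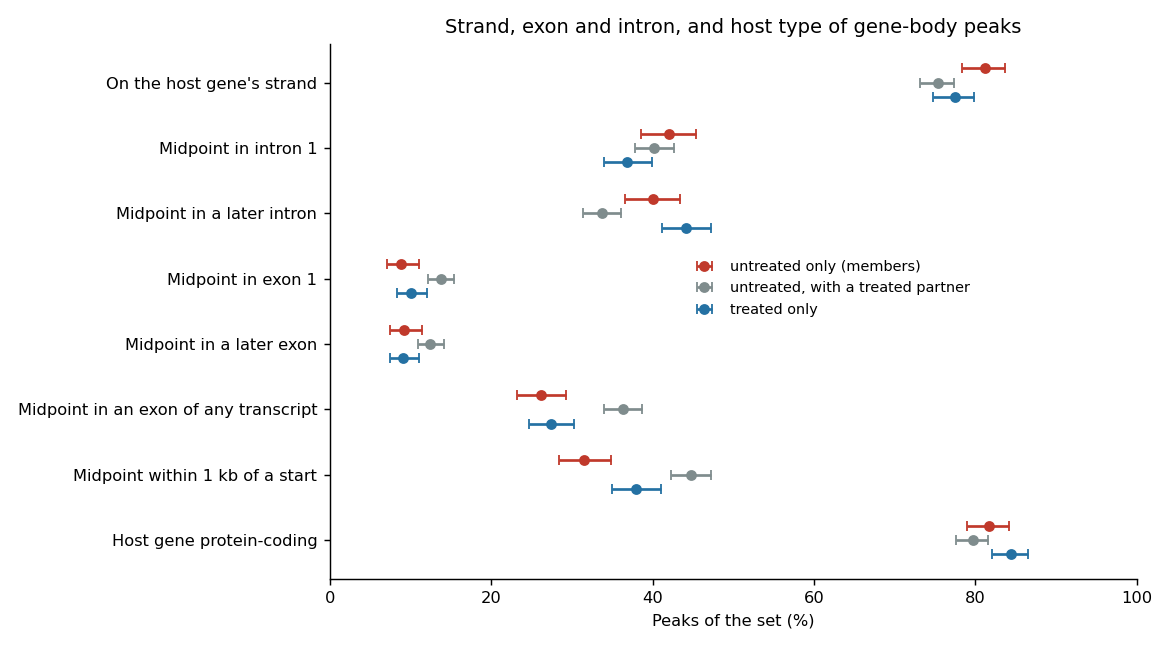
Percent of gene-body peaks (x axis) with each feature, for the 803 members, the 1602 untreated peaks with a treated partner and the 1007 treated-only peaks. Points are shares and bars 95% Wilson intervals; members lie below the matched peaks for exonic midpoints (26.2% and 36.3%) and above them for the host gene's strand (81.2% and 75.3%).

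Along the host transcript the members were concentrated at its beginning. The median position was 31.1% of the way from start to end (26.8 to 34.8), against 28.1% (23.3 to 33.2) for matched and 33.4% (28.9 to 37.2) for treated-only peaks, with overlapping intervals. Members and matched peaks stood further apart by strand. On the strand of the host the median was 26.3% (19.3 to 31.8) for members, 11.4% (7.77 to 14.9) for matched and 23.6% (18.4 to 30.5) for treated-only peaks. The first 10% of the transcript held 246 of the 652 same-strand members (37.7%, 34.1 to 41.5), 49.2% of matched and 39.4% of treated-only peaks. No later bin of 10% held more than 9.20% of these members. Members opposite to the host had a median position of 51.4% (42.2 to 60.6), against 70.8% (65.9 to 75.5) for matched peaks. Treated-only peaks had 67.3% (57.4 to 74.0), an interval that overlaps that of the members. The last 10% held 34 of the 151 members opposite to the host (22.5%).

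**Figure D3:**
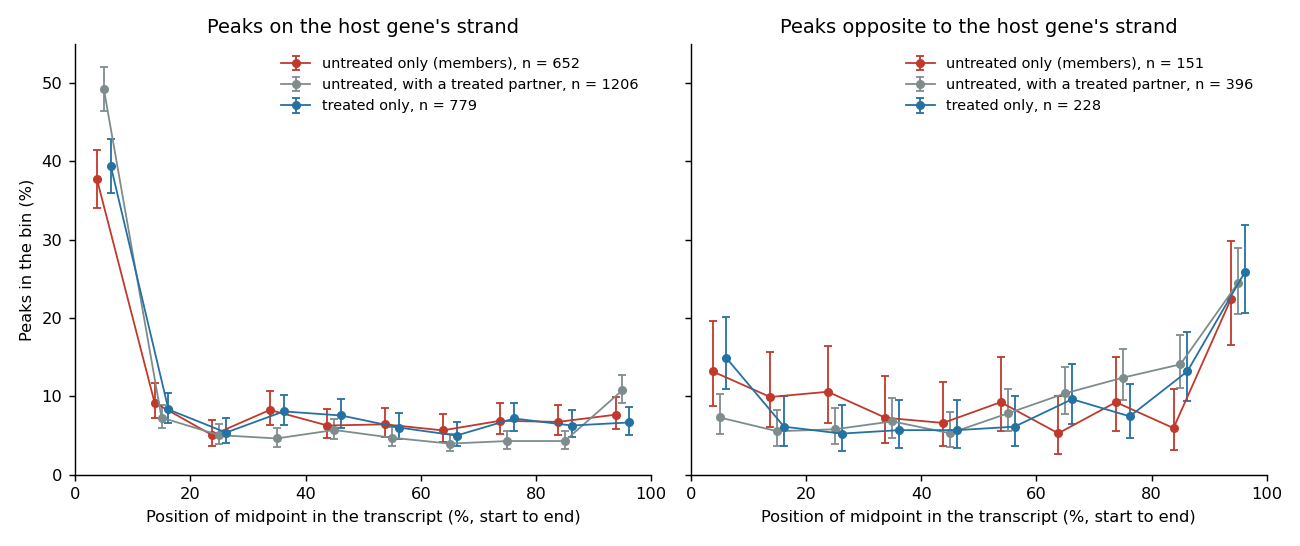
Percent of peaks (y axis) in each 10% bin of the reference transcript from start to end (x axis, percent), for peaks on the host gene's strand (left) and opposite to it (right), with 95% Wilson intervals. In the leftmost bin of the left panel members reach 37.7% and matched peaks 49.2%; in the rightmost bin of the right panel they reach 22.5% and 24.5%.

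In base pairs, the midpoints lay a median of 8095 bp (6801 to 9801) from the start of the reference transcript, against 4939 bp for matched and 8633 bp for treated-only peaks. The nearest annotated start of any gene was 2426 bp away (1993 to 2815), and 253 members were within 1 kb of one (31.5%, 28.4 to 34.8). The matched peaks had 44.8% and the treated-only peaks 37.9% within that distance, while 3.70% of 500-base tiles of the gene bodies were that near. The rule itself removed midpoints up to 100 bp downstream of a start. At the far end, 271 members (33.7%) lay over 20 kb into the transcript. The deepest were in EYS, a gene of the photoreceptor matrix (1967162 bp from the start, intron 41), SDK1, a synaptic adhesion gene (675617 bp, intron 13), the cyclic nucleotide phosphodiesterase gene PDE4B (478596 bp, intron 7), ADGRL3, a latrophilin (446791 bp, intron 5), and PDE11A, another phosphodiesterase gene (438012 bp, intron 19). All 5 were intronic, and those in EYS, SDK1 and PDE11A lay opposite to the gene. The SDK1 peak was 1 of the tandem repeats, matching itself at 84.0% of positions after a shift of 51 bases. The peak in EYS also lay within the gene PHF3, and its distance and strand are given relative to EYS, the host by the rule above.

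In base composition the members were less GC-rich than both other sets. Median GC content was 50.9% (50.1 to 51.6), with quartiles of 45.5% and 57.8%, against 55.1% (54.5 to 55.9) for matched and 54.7% (53.8 to 55.9) for treated-only peaks. Gene-body tiles of 500 bases had a median of 40.0%. Since GC content depends on width and on the distance to a start, these were held fixed in turn. Among 500-bp peaks the medians were 53.8% (52.8 to 55.2), 60.0% and 58.1%. Within 1 kb of a start they were 58.2% (56.2 to 59.6) for members, 60.1% (59.2 to 61.0) for matched and 62.8% (61.6 to 63.8) for treated-only peaks. At 1 to 5 kb they were 49.8%, 51.6% and 50.5%, with overlapping intervals, and beyond 5 kb the members had 47.2% (46.0 to 48.2) and the matched peaks 49.2% (48.2 to 50.4), with an interval of 48.6% to 51.0% for the treated-only peaks.

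Taken over all distances, CpG content was lower in members than in both other sets. The ratio of observed to expected CpG had a median of 0.349 (0.327 to 0.374) in members, 0.458 in matched and 0.450 in treated-only peaks. Within 1 kb of a start the medians were 0.650 (0.616 to 0.695), 0.721 (0.710 to 0.735) and 0.743. At 1 to 5 kb they were 0.298, 0.296 and 0.322, and beyond 5 kb 0.274, 0.284 and 0.322. In both of these bins the intervals overlapped. A GC content over 50% together with a CpG ratio over 0.6, a usual mark of CpG islands, was met by 169 members (21.1%, 18.4 to 24.0), by 38.2% of matched and by 34.4% of treated-only peaks. Within 1 kb of a start the shares were 52.2% (46.0 to 58.3), 71.5% (68.1 to 74.7) and 73.0% (68.4 to 77.2). At 1 to 5 kb the 3 sets had 7.99%, 9.88% and 11.6%, with overlapping intervals for members and matched peaks. Beyond 5 kb members had 5.08% (2.93 to 8.68), matched peaks 13.0% (9.97 to 16.7) and treated-only peaks 9.94% (7.13 to 13.7).

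On the strand of the peak the members as a set carried more G than C at the median. Their median skew, the excess of G over C divided by their sum, was 0.0203 (0.0127 to 0.0298). It was -0.00504 (-0.00969 to 0) in matched and -0.0150 (-0.0211 to -0.00441) in treated-only peaks. More G than C was found in 470 of 802 members (58.6%, 55.2 to 62.0), in 47.1% of matched and in 43.7% of treated-only peaks. The order held at each distance from a start, with member medians of 0.0153, 0.0152 and 0.0329 and medians of the other sets below 0, although within 1 kb the intervals of members and matched peaks overlapped. It also held among 500-bp peaks, at 0.0127 (0.00337 to 0.0278), -0.0187 and -0.0215. For peaks on the strand of the host gene, members had a median of 0.0279 (0.0191 to 0.0363) while both other sets had a median of 0. Members opposite to the host had a median of 0.00258, with an interval that spans 0 (-0.0195 to 0.0127). Matched peaks opposite to the host had -0.0204 (-0.0341 to -0.0105), which overlaps it, and treated-only ones -0.0475 (-0.0676 to -0.0352). Gene-body tiles read on the gene strand had a median of 0.0187 (quartiles -0.0649 and 0.102). This lies just below the interval of the same-strand members and above the same-strand median of both other sets.

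**Figure D4:**
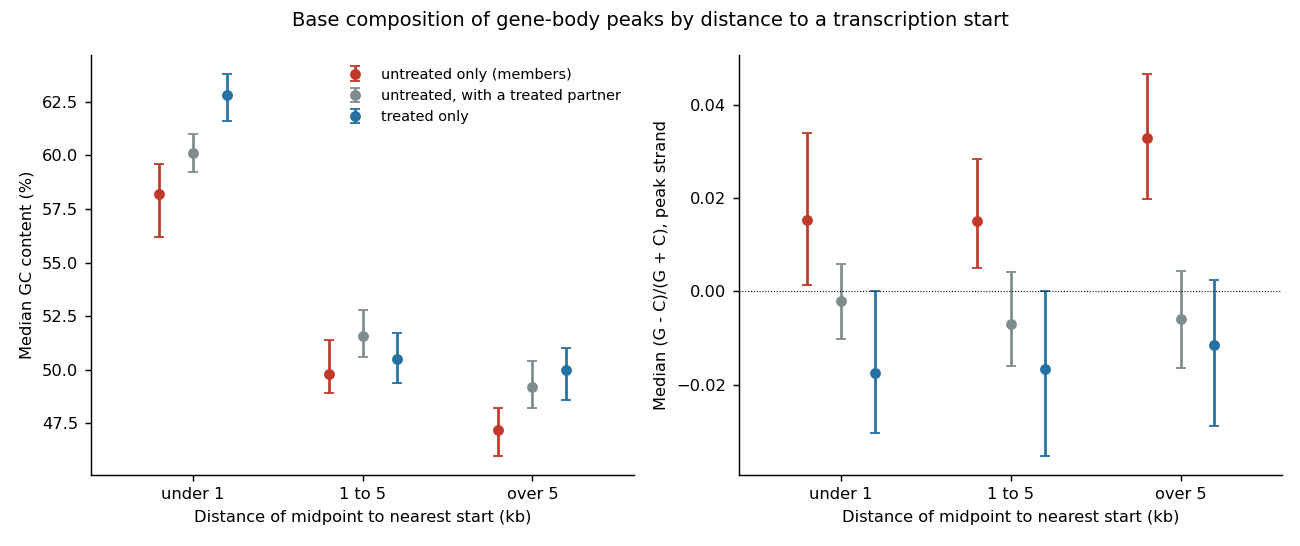
Median GC content (left, percent) and median G-minus-C skew on the peak strand (right), by distance of the midpoint to the nearest start (x axis, kb), with 95% order-statistic intervals. Member medians of skew are 0.0153, 0.0152 and 0.0329 in the 3 bins, while both other sets are below 0 in each.

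A higher median skew did not go with more runs of G. The members had 16.0 runs of 3 or more G per kb on their strand, against 17.3 in each other set. Runs of 3 or more C numbered 15.2 per kb in members and 20.0 in each of the others. A G-quadruplex motif was searched as 4 runs of at least 3 G with 1 to 7 bases between them. On the peak strand it was found in 41 of 417 members of 500 bp (9.83%, 7.33 to 13.1), in 14.5% of matched and 14.6% of treated-only peaks of that width and in 2.46% of gene-body tiles read on the gene strand, the intervals of the 3 sets overlapping. On the other strand the shares were 13.7%, 17.9% and 19.3%. A match is a description of the letters, and these windows were not assayed for the structure.

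The extremes of skew were broad. KDM4B reached 0.782, F11-AS1 0.763 and TFDP1 0.684, all on the strand of their host gene. MPG stood at -0.497, EXD3 (an exonuclease-domain gene; intron 3) at -0.424, and a peak in WDFY1 on chromosome 2 at -0.402. The last lay 524 bp from a start and had 71.6% GC. Over its whole length the EXD3 peak matched itself at 61.3% of positions after a shift of 67 bases. These 6 peaks are the ends of the distribution, and the quartiles of all members were -0.0415 and 0.0905.

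Treated peaks were often far away. From a member to the nearest treated peak on its strand the median gap was 42500 bp (35250 to 53250), and to one on either strand 26500 bp. A same-strand treated peak lay within 1000 bp for 81 members (10.1%, 8.19 to 12.4), downstream in 36 and upstream in 45, and within 5000 bp for 135 (16.8%). For 162 members (20.2%) no treated peak of either strand was within 100 kb. The mirror set had a median same-strand gap of 46500 bp. The most isolated members were in ZNF717, a zinc finger gene (2665545 bp to any treated peak), FAM86DP (2344000 bp), UNC5D, a netrin receptor gene (2009500 bp), PTBP2, a splicing regulator gene (1683250 bp), and FAR2, which encodes a fatty acyl-CoA reductase (1416250 bp). Those in ZNF717 and UNC5D had a near-identical copy elsewhere. The peaks in UNC5D and FAR2 lay opposite to the host gene. The one in FAR2 also lay within the gene ERGIC2, and its strand is given relative to FAR2 alone.

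**Figure D5:**
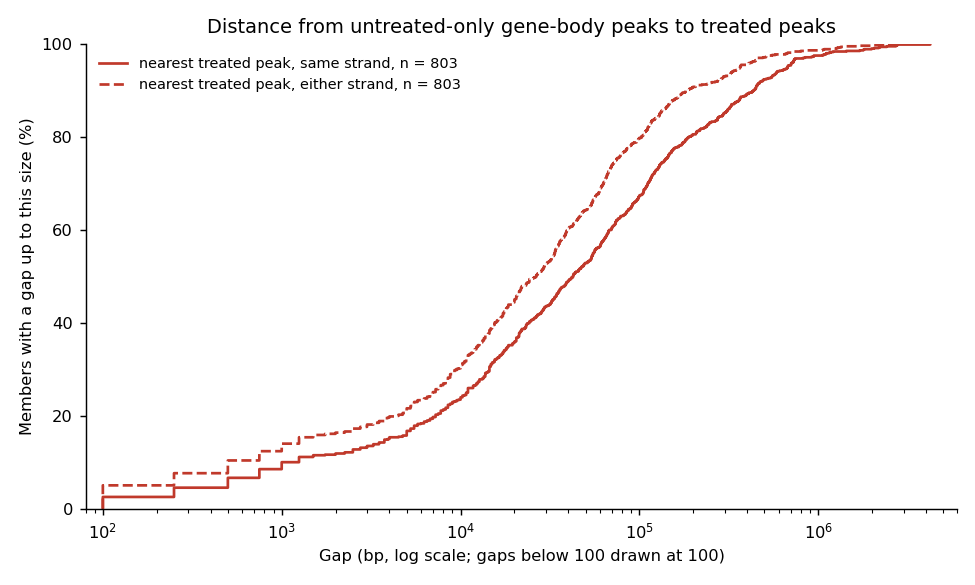
Cumulative percent of the 803 members (y axis) with a nearest treated peak within a given gap (x axis, bp, log scale), on the same strand (solid) and on either strand (dashed). Of the members 10.1% have a same-strand treated peak within 1000 bp, and the median same-strand gap is 42500 bp.

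At the edge of the rule, 21 members touched a same-strand treated peak without sharing a base. Among them were peaks in LINC01106, the pseudogene LAMB2P1 and FOXC1, a forkhead factor gene. Just on the other side, matched peaks in a lncRNA on chromosome 5, SNAI3-AS1 and INTS14 shared 250 bp with a treated peak. The members in LRRC23 and DEF6 overlapped a treated peak of the opposite strand by 250 bp.

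Host genes had treated peaks elsewhere about as often as the hosts of treated-only peaks had untreated ones. In 372 cases (46.3%, 42.9 to 49.8) a treated peak of either strand lay in the host gene, and in 292 (36.4%) one on the strand of the gene. The mirror shares, untreated peaks in the hosts of treated-only peaks, were 45.5% and 35.4%. The promoter windows of the host held a treated peak for 221 members (27.5%) and an untreated one for 203 (25.3%). Both lists had a peak there for 162 members, the untreated list alone for 41, the treated list alone for 59, and neither for 541. For 398 members (49.6%, 46.1 to 53.0), in 384 genes, no treated peak lay in the host or at its starts, and the mirror share for treated-only peaks was 49.8%. In 336 of these the host also held no other untreated peak, so that the member was the lone R-loop listed for the gene in either condition. Of the 775 hosts, 79 also held a treated-only gene-body peak, which is 10.2% of member hosts and 8.32% of treated-only hosts. Another 614 hosts held neither a matched nor a treated-only gene-body peak.

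Genes of 5 functional groups were looked up among the hosts, against the 775 of 2158 genes (35.9%) with an untreated gene-body peak that held a member. In the group of DNA repair and replication stress, 3 of 8 such genes did. The member in ATR, the checkpoint kinase of stalled forks, was in intron 1, 9513 bp from the start and 8250 bp from a treated peak. That in PRKDC, the catalytic subunit of DNA-PK, was in intron 7 and 11000 bp from a treated peak. In NBN, a subunit of the MRE11 complex, the member was in intron 1, 755 bp from the start, and no treated peak lay within 1056250 bp. All 3 were on the strand of the gene and 500 or 750 bp wide.

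Chromatin modifiers held members in 5 of 8 genes. They were BRD3, a reader of acetylated histones (intron 1, 1000 bp from a treated peak), TET1, a methylcytosine dioxygenase (intron 2), SETD1B, a histone H3 lysine methyltransferase (exon 13, coding sequence, 1250 bp wide), CHD9 and KDM4B. All 6 members of this group lay on the strand of the gene. The share of 62.5% rests on 8 genes. In RNA splicing and processing 4 of 12 genes held a member, namely HNRNPD (intron 2), SNRNP70, the U1 snRNP protein (intron 4), SRRM2 (intron 1, 987 bp from the start) and TAF15 (intron 1, 1250 bp wide), which binds RNA. Each of these 4 hosts also had a treated peak at its starts. In the group of transcription and 3′ end formation, CDC73 and PCF11, a cleavage factor subunit (intron 1), were the 2 of 6 genes. In R-loop processing, 0 of the 3 genes with an untreated gene-body peak held a member. With so few genes per group, none of these counts sets a group apart from the 35.9% of all hosts.

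Across chromosomes, chromosome 1 held 103 members, chromosome 16 held 54 and chromosome 7 held 53. Per 100 Mb of gene body the density was highest on chromosome 19 (136) and chromosome 16 (123) and lowest on chromosome 8 (23.0). The unmatched share of untreated gene-body peaks ran from 25.0% (17.0 to 35.2) on the X chromosome to 45.4% (36.7 to 54.3) on chromosome 16 among chromosomes 1 to 22 and X. On chromosome 19, which held 142 untreated gene-body peaks in 29.5 Mb, the unmatched share was 28.2%.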

How the data were processed

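Reads were trimmed (Trim Galore), mapped to hg19 (Bowtie2) and cleared of duplicates (Picard) by the authors, who then defined R-loops from 2 replicates by a published procedure. The deposited lists give a position and a strand per peak in 4 columns, with no score of any kind. The labels attach the list of each condition to its replicate 1. Tracks and read files were not analysed here, so the depth per sample is unknown. What the strand column stands for is not given in the sources used here.

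Members, comparison sets and gene lists were chosen with earlier results of these data known. Genes were taken from GENCODE release 44 in its GRCh37 version and bases from the GRCh37 sequence. Peaks with over 50% of their bases masked had no base composition, which concerned the 1 member on chromosome Y. A near-identical copy is a minimap2 2.31 alignment elsewhere with at least 98% identity over at least 90% of the peak. Tiles were 500 bases. Shares have Wilson intervals and medians order-statistic intervals, both at 95%. Named genes were the 8 widest members (1 of these is not reported here), 10 genes with several members, the 5 farthest from a treated peak, the 3 highest and 3 lowest in skew, the 5 deepest, those of the 5 gene lists, and those at the edge of the rule. Overlap and assignment were tested on simulated peaks, where 2000 of 2000 overlap calls and 12 of 12 assignments were right, and bedtools 2.31.1 gave the same 2596 unmatched untreated peaks. Python 3.11.15, numpy 2.4.6, scipy 1.17.1 and matplotlib 3.10.9 were used. Other settings of overlap, windows, annotation, assignment and width are given in the closing section.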

Additional observations from a re-analysis of the deposited data

How the results depend on the processing

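No paired analysis was possible because only 1 list represents a condition, and leaving out a replicate was not possible for the same reason. In all, 66 values were recomputed for 8 results. Of these values, 42 remained inside the interval of the reported one (counts within 1.5 times), 24 did not, and 0 reversed. The skew stayed within its interval under all 9 alternatives run on it.

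With windows of 1000 bp on either side of starts and ends, 475 members were left, the unmatched share was 40.5%, exonic midpoints 12.2%, the median position 42.3% and GC content 48.8%. With 2000 bp these were 281, 46.7%, 4.98%, 42.2% and 48.7%, and 84.3% lay on the host strand. Assignment by any overlap left 540 members and an unmatched share of 47.5%. It gave exonic midpoints of 15.6%, a median position of 36.9% and GC content of 49.6%. With protein-coding genes only, 85.8% lay on the host strand, the median position was 25.7% and GC content 51.7%. An overlap of 50% of both peaks gave an unmatched share of 40.6%. Keeping in each list only peaks not narrower than its median gave 36.4%, with GC content of 49.7%. In that setting a narrow treated peak no longer counted as a partner, so some peaks became unmatched by construction. Against the full treated list, untreated gene-body peaks of 750 bp, 1000 bp and over 1000 bp were unmatched in 37.4%, 32.2% and 9.92%. Exonic midpoints came to 18.1% with the reference transcript alone and to 44.2% when any base of the peak counted. Treated peaks elsewhere in the host fell to 36.4% on the gene strand alone. Leaving out members with a near-identical copy, an alternative chosen after seeing the data, moved none of the 5 values recomputed beyond its interval. The cause of these shifts was not tested, except that wider windows remove peaks near starts and ends by construction.

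Against the matched peaks, the lower exon share, lower GC content, higher skew and higher share on the host strand of the members kept their direction under the 4 alternatives run on both sets. Against the treated-only peaks the exon share did not: with windows of 1000 bp it was 12.2% in members and 12.1% in treated-only peaks.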
